A study of Caenorhabditis elegans with 4 samples.

Results

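The peaks described here are all those on chromosome IV in 3 deposited lists of ZHP-3 binding in Caenorhabditis elegans, mapped by chromatin immunoprecipitation followed by sequencing (ChIP-seq). They were chosen by chromosome name alone, with no use of their scores. Chromosome IV held 1249 of the 6537 peaks of ChIP replicate 1, 1098 of the 6086 peaks of ChIP replicate 2 and 2220 of the 11798 peaks of a list for the whole series, called the combined list here. Overlapping peaks of the 2 replicates merged into 832 regions on IV that held a peak of each, of 4634 such regions in the genome. These regions are called shared regions here.

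The study has 4 samples, 2 of ChIP and 2 of input DNA. All are of hermaphrodites kept at 20 °C, strain fem-2(b245), genotype fem-2(b245)III. FEM-2 is a protein phosphatase of the sex-determination pathway that worms need to make sperm. The stage label reads germline containing young adult, while the growth protocol speaks of gravid adults. Chromatin came from whole worms, so nuclei of the body and of the germline were mixed. It was fixed with 1% formaldehyde for 10 min, and the ChIP used 5 µg of a polyclonal rabbit antibody against ZHP-3, purified by affinity. The labels number the replicates 1 and 2 and do not say whether they came from separate cultures, so the spread between them may be technical.

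ZHP-3 is a meiotic protein with a RING finger. It loads along the synaptonemal complex, the structure that holds paired homologous chromosomes together, later withdraws to the sites of crossovers, and is needed for crossovers to form. Crossovers in this species fall mainly on the chromosome arms, and each chromosome has a pairing centre near one of its ends through which it finds its homolog. The files do not mark that of chromosome IV, so both ends are described in the same way. Chromosome IV also carries most genes of the piRNAs, small germline RNAs that guide the Piwi protein PRG-1 against foreign and selfish sequence. In the RefSeq gene table of WBcel235, 14714 of 15363 piRNA genes (95.8%) lie on IV. Their spans were taken as 4.5 to 7.0 Mb and 13.5 to 17.2 Mb.

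The lists give a first base, a last base and a caller score for each peak, with no read counts. The sequencing depth is therefore unknown, and no reads or peaks of the input samples were analysed here. Positions are on the WS220 build, and neither a gene nor a sequence was assigned to any peak, because no WS220 annotation or genome was used here. The last base of IV in the combined list, 17493816, served as the length of the chromosome. The 2 replicates form 1 group, and an exact sign-flip test over 2 values cannot go below a two-sided p of 0.5, so no test across replicates was run. The values below are descriptions with their spread.

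Chromosome IV had 71.4 peaks per Mb in replicate 1 and 62.8 in replicate 2. The other nuclear chromosomes together had 63.9 and 60.3. IV thus exceeded the others by a ratio of 1.12 in replicate 1 and 1.04 in replicate 2. The mean ratio was 1.08 ± 0.0538 (SD, n = 2). By shared regions, IV had 47.6 per Mb and the others 45.9. Its mean peak density of 67.1 ± 6.10 per Mb (SD, n = 2) was below that of III and I and above that of II, V and X. The values of IV and I overlapped between replicates, since replicate 2 of I, at 68.1 per Mb, lay below replicate 1 of IV. The lower value of IV, 62.8 in replicate 2, was close to the higher value of II, 61.2 in replicate 1.

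Replicate 1 called more peaks than replicate 2 on IV, by a factor of 1.14. The same factor lay between 1.0 on the X and 1.11 on I for the other 5 chromosomes. The gap between replicates was thus widest on IV in these libraries. How far IV exceeded the others varied with score. For the higher-scoring 50% of each list the ratio was 1.02 in replicate 1 and 0.984 in replicate 2. In the highest-scoring 10%, a limit tried after the values were seen, IV had 133 and 128 peaks (7.60 and 7.32 per Mb), against 6.29 and 5.81 per Mb on the other chromosomes, ratios of 1.21 and 1.26. The median score percentile of IV peaks within their list was 46.3 in replicate 1 and 47.3 in replicate 2, against 50.9 and 50.6 on the other chromosomes.

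**Figure D1:**
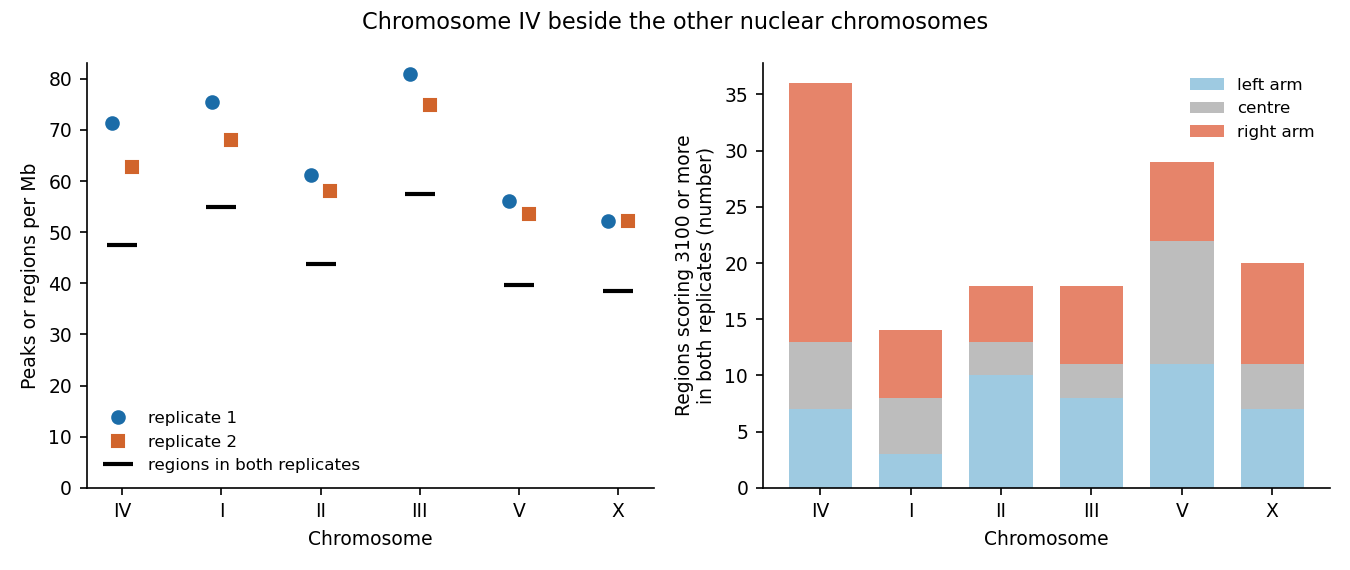
Left, ZHP-3 peaks per Mb in replicate 1 (circles) and replicate 2 (squares) and shared regions per Mb (bars) for each nuclear chromosome, IV first. Right, number of shared regions with a score of 3100 or more in both replicates, stacked by 3 equal parts of the chromosome. IV has 71.4 and 62.8 peaks per Mb and 36 such regions, 23 of them on its right arm.

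Peaks on IV covered 3.98% of its bases in replicate 1 and 3.49% in replicate 2, against 3.64% and 3.31% on the other chromosomes. A single stretch of 60.6 kb, described further on, held 6.13% and 6.60% of these covered bases. It also held 3.44% and 3.55% of the peaks on IV. No comparison of IV with the other chromosomes leaves it out. Leaving it out would lower the values of IV in both replicates, so the excess may not be spread along IV. Median width was 392 bp in replicate 1, with quartiles of 289 and 565 bp, and 399 bp in replicate 2, with quartiles of 288 and 572 bp. Widths ranged over 142 to 5715 bp in replicate 1 and 118 to 5752 bp in replicate 2. Peaks of 1500 bp or more numbered 63 (5.04%) and 59 (5.37%) on IV, against 4.65% and 4.15% of peaks on the other chromosomes. The median shared region on IV was 518 bp wide, and the shared regions together spanned 614 kb.

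Most peaks on IV recurred in the other replicate. Of the replicate 1 peaks on IV, 872 of 1249 (69.8%, exact Clopper-Pearson 95% interval 67.2% to 72.4%) overlapped a replicate 2 peak by at least 1 bp, against 73.4% of all nuclear replicate 1 peaks. Of the replicate 2 peaks on IV, 892 of 1098 (81.2%, interval 78.8% to 83.5%) overlapped a replicate 1 peak, against 81.7% of all nuclear replicate 2 peaks. These intervals take peaks as independent and cover counting error only. Replicate 1 had its lowest share of recurring peaks on IV, the next being III at 72.4%. In replicate 2 the share on IV lay within the range of the other chromosomes, 78.1% on the X to 84.8% on I.

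The share rose with score, on IV as in the genome. In the lowest 25% of the replicate 1 list by score, 132 of 350 IV peaks (37.7%) recurred, against 40.8% of all nuclear peaks. In the highest 25%, 297 of 302 (98.3%) did, against 98.2%. In replicate 2 the lowest 25% gave 185 of 320 (57.8%, against 58.6%) and the highest 269 of 271 (99.3%, against 98.9%). IV peaks without a partner were also narrower. Their median width was 289 bp in replicate 1 and 286 bp in replicate 2, against 460 and 439 bp for IV peaks with a partner.

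Where the replicates met, they met closely. Of the 832 shared regions, 765 (91.9%) joined 1 peak of each replicate. The midpoints of such pairs lay a median of 24 bp apart (quartiles 12 and 58 bp), and the bases called by both made up a median of 83.8% of the region. Across these 765 pairs, which share the same build and caller, the scores had a Spearman correlation of 0.792 and the widths of 0.818. The other 67 regions joined several peaks of at least 1 replicate.

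The combined list added calls that were mostly weak. Of its 2220 peaks on IV, 795 (35.8%) overlapped a peak in both replicates, against 37.7% over all its nuclear peaks. Another 314 (14.1%, against 12.3%) overlapped replicate 1 alone and 178 (8.02%, against 8.29%) replicate 2 alone. The remaining 933 (42.0%, against 41.7%) overlapped neither. The peaks found in both had a median combined score of 30.1 and a median width of 526 bp. Those in neither replicate had a median score of 5.04 and a median width of 229 bp. Their highest score was 39.74, above the median of those found in both. The combined list held 365 of the 377 replicate 1 peaks on IV that had no partner (96.8%), against 99.0% of all replicate 1 peaks on IV. For replicate 2 it held 204 of the 206 without a partner (99.0%), against 99.8% of all.

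Along the chromosome, the replicates followed each other. Over 175 windows of 100 kb, the counts of replicate 1 and replicate 2 had a Pearson correlation of 0.852 and a Spearman correlation of 0.822. Neighbouring windows are not independent, and mappability and the build are shared. Replicate 1 had the higher count in 97 windows, replicate 2 in 38, and they were equal in 40. Among the bins of a full 1 Mb, replicate 1 ranged from 34 peaks (10 to 11 Mb) to 103 (6 to 7 Mb). Replicate 2 had its lowest and highest counts in the same bins, 33 and 86. The last, shorter bin had 32 peaks in each replicate. The second highest count of replicate 1 was 102, at 1 to 2 Mb, where replicate 2 had 76. In the low bin at 10 to 11 Mb, 23 shared regions were found, and 60 at 6 to 7 Mb.

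**Figure D2:**
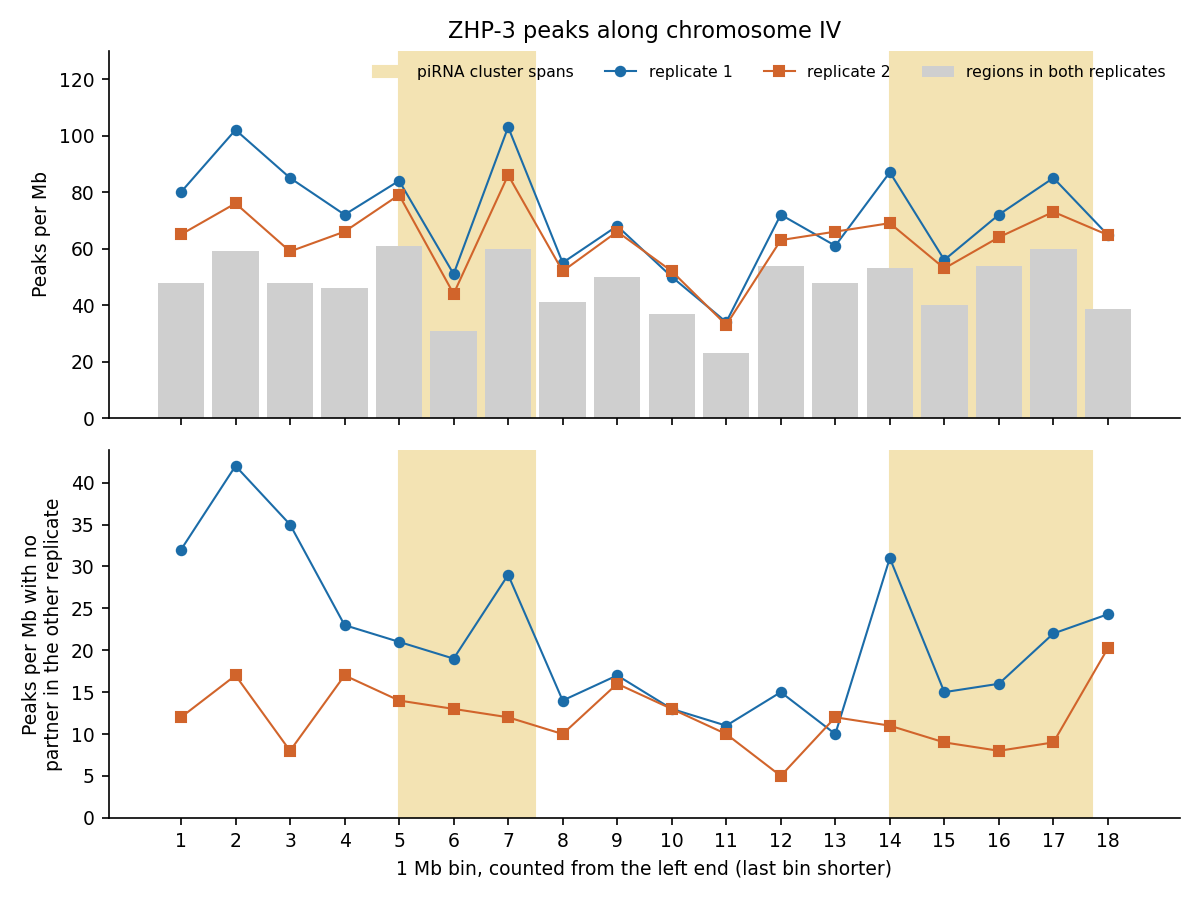
ZHP-3 peaks of replicate 1 (circles) and replicate 2 (squares) in 1 Mb bins of chromosome IV, counted from the left end. The upper panel gives all peaks per Mb, with shared regions as bars, and the lower panel peaks per Mb without a partner in the other replicate; shading marks the piRNA cluster spans. Both replicates are lowest per Mb in bin 11 (34 and 33 peaks) and highest in bin 7 (103 and 86), and replicate 1 has 32, 42 and 35 unpartnered peaks in the first 3 bins.

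The replicates differed most on the left arm. Chromosome IV was cut into 3 equal parts, the outer ones called arms. The left arm held 80.6 peaks per Mb in replicate 1 and 66.0 in replicate 2. The right arm held 69.6 and 63.5, and the centre 63.97 and 58.8. Arms together exceeded the centre by a ratio of 1.17 in replicate 1 and 1.10 in replicate 2. The mean ratio was 1.14 ± 0.0521 (SD, n = 2). The shared regions gave 290 on the left arm (49.7 per Mb), 285 on the right arm (48.9 per Mb) and 257 in the centre (44.1 per Mb), a ratio of 1.12.

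A single stretch of the centre lowered the ratio of arms to centre. Peaks crowded into 60.6 kb at 6668325 to 6728946, described further on. Left out, after its values were seen, the stretch raised the ratio of arms to centre to 1.31 in replicate 1 and 1.23 in replicate 2. Covered bases gave ratios of 0.977 and 0.918 with the stretch, and of 1.18 and 1.12 without it. Among the higher-scoring 50% of peaks the ratios were 1.04 and 0.940 with it, and 1.19 and 1.06 without it. Outside the stretch the arms were above the centre in both replicates by each of these measures. The stretch was picked for its crowding and lies in the centre, so leaving it out could only raise these ratios. No crowded place on the arms was left out, so the values do not decide whether arms exceed the centre.

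Peaks in the centre were wider by their median, at 429 bp in replicate 1 and 430 bp in replicate 2, with the stretch included. On the left arm the medians were 362 and 378 bp, and on the right arm 396 and 381 bp.

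The replicates also differed in the first 3 Mb of IV. Replicate 1 called 267 peaks there (89.0 per Mb) and replicate 2 called 200 (66.7 per Mb), a factor of 1.34. Past 3 Mb the counts were 982 (67.8 per Mb) and 898 (61.96 per Mb), a factor of 1.09. In the first 3 Mb of I, replicate 1 called 272 peaks and replicate 2 called 216, and on III 251 and 198. The counts there were 175 and 152 on II, 173 and 169 on the X, and 145 in each replicate on V. Of the replicate 1 peaks in the first 3 Mb of IV, 158 (59.2%) had a partner, against 714 (72.7%) past it. In replicate 2 the shares were 81.5% and 81.2%. The limit of 3 Mb was chosen after the values were seen.

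The unpartnered peaks of replicate 1 in the first 3 Mb numbered 109, and 105 of them were in the lower-scoring 50% of the list. Among lower-scoring replicate 1 peaks, 67 of 172 (38.95%) in the first 3 Mb had a partner, against 260 of 498 (52.2%) past it. Among higher-scoring ones, 91 of 95 (95.8%) and 454 of 484 (93.8%) did. The median score percentile of replicate 1 peaks was 35.8 in the first 3 Mb and 49.1 past it. In replicate 1 the partner share was also lower in the first 3 Mb than past it on I, II, III and X, and higher on V. On chromosome III, for example, 64.1% had a partner in the first 3 Mb and 74.8% past it. The shared regions were spread more evenly, with 51.7 per Mb in the first 3 Mb of IV and 46.7 past it.

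The piRNA spans differed little from the rest of IV in the number of peaks. Replicate 1 had 75.3 peaks per Mb in both spans together and 69.2 in the rest of IV, a ratio of 1.09. Replicate 2 had 65.6 and 61.2, a ratio of 1.07. The mean ratio was 1.08 ± 0.0105 (SD, n = 2). Shared regions gave 49.4 per Mb in the spans and 46.6 in the rest, a ratio of 1.06. In the combined list the order turned round, with 118.5 peaks per Mb in the spans and 131.5 in the rest, a ratio of 0.902. Covered bases were higher in the spans, with 4.44% in replicate 1 and 3.90% in replicate 2, against 3.73% and 3.27% in the rest. Without the crowded stretch, which lies in the first span, the spans were covered to 3.78% and 3.28%, close to the rest. The ratio of peak density for both spans together was then 0.997 in replicate 1 and 0.980 in replicate 2, just below 1. The stretch was picked for its crowding, so leaving it out could only lower this ratio.

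The spans were not alike inside. The first span, 4.5 to 7.0 Mb, had 76.8 and 65.6 peaks per Mb in replicates 1 and 2. Its part on the left arm had 63.8 and 55.6, and its part in the centre 91.6 and 77.0. The part in the centre includes the crowded stretch. Without the longest block of that stretch, the ratio of the first span to the rest of IV was 1.05 in replicate 1 and 0.974 in replicate 2, against 1.11 and 1.07 with it. The whole stretch held 43 of the 192 replicate 1 peaks in this span and 39 of the 164 replicate 2 peaks. The ratio of peak density without all of it is not given for this span alone. It would lie below the values without the longest block, since the rest of the stretch is crowded too. Without the whole stretch, peaks covered 2.87% and 2.49% of the first span, below the rest of IV. The second span, 13.5 to 17.2 Mb, had 74.3 and 65.7 peaks per Mb, a ratio to the rest of IV of 1.07 in each replicate, and peaks covered 4.39% and 3.81% of it.

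**Figure D3:**
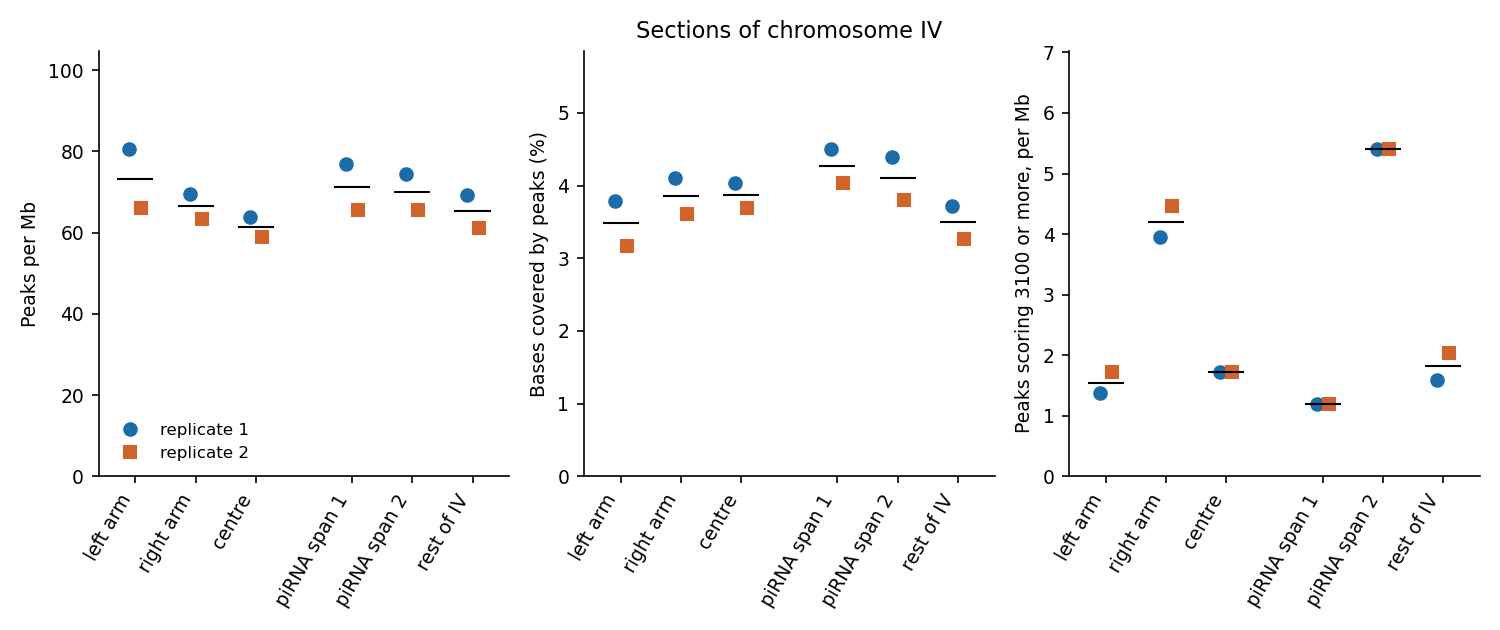
Values of replicate 1 (circles) and replicate 2 (squares) with their mean (line) in sections of chromosome IV, for peaks per Mb, percent of bases covered by peaks, and peaks scoring 3100 or more per Mb. piRNA span 1 is 4.5 to 7.0 Mb and piRNA span 2 is 13.5 to 17.2 Mb. Both replicates have 5.41 such high-scoring peaks per Mb in the second span, against 1.59 and 2.04 in IV outside the spans.

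High-scoring peaks were denser in the second piRNA span than in the rest of IV, a pattern singled out after the values were seen. Many of the strongest replicate peaks share a score of 3100, 39 on IV in replicate 1 and 44 in replicate 2, so their order is tied. Scores of 3100 or more in both replicates were found in 36 of the 832 shared regions on IV (4.33%), against 2.91% of all nuclear shared regions. On the other chromosomes the share lay between 1.69% on I and 3.49% on V. Of the 36, 23 were on the right arm, 7 on the left arm and 6 in the centre. The second span alone held 20 (55.6%, exact Clopper-Pearson 95% interval 38.1% to 72.1%, counting error only). The interval takes regions as independent, though some lay side by side. It is no test of the pattern, which was picked from these same values. The span makes up 21.2% of IV and holds 22.6% of its shared regions.

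Counts of each replicate in the second span rest on the same 20 shared regions, so they are no separate support for the pattern. Peaks with a score of 3100 or more numbered 20 in the second span in each replicate (5.41 per Mb), 3 in each in the first span (1.20 per Mb), and 18 and 23 in the rest of IV (1.59 and 2.04 per Mb). With a wider choice of strong regions the share in the second span was smaller. Of the 102 shared regions in the top 10% of both lists, 33 (32.4%) lay in it. Shared regions of that kind were 12.3% of those on IV, against 10.3% of all nuclear shared regions. Of the 36 shared regions ranked highest by combined score, 13 (36.1%) lay in the second span.

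These strong regions were wide and partly grouped. In the second span they ranged from 853 bp to 5148 bp. A group of 3 lay at 15058609 to 15082342, where the middle and last ones were separated by 0.24 kb. The widest of the strong regions, at 14476061 to 14481208, was a single peak in each replicate and 2 peaks in the combined list. In the first span, 3 regions stood side by side at 4920613 to 4927686, with gaps of 0.43 and 0.52 kb. All 3 scored 3100 in both replicates, and no other region of that span reached it in both. On the left arm outside the spans, the 4 regions at 3100 in both replicates lay at 280391, 1344716, 1439660 and 1475949 (first bases). Whether repeated sequence contributed to high scores was not tested.

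The highest combined scores on IV belonged to regions spread over the whole chromosome. The first was at 3313172 to 3314447 on the left arm, with a combined score of 223.5 and scores of 2360 in replicate 1 and 2506 in replicate 2. The second, at 9196041 to 9197297 in the centre, had 213.5, 2494 and 2897. Next came a pair in the first piRNA span, 4727640 to 4728336 with a combined score of 209.2 and 4725353 to 4725898 with 204.6, which lay 1.74 kb apart. The fifth, 16845239 to 16845967, lay in the second span (195.3). By replicate score, the lowest percentile of these 5 in either list was 94.9.

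The sixth to eighth were at 2219227 to 2219971 on the left arm (194.4), 15319728 to 15321316 in the second span and 12021778 to 12025707 on the right arm (194.2 each). The sites at 15319728 and 12021778 scored 3100 in both replicates. The last 2 of the 10, 8071947 to 8072283 and 8072585 to 8074198, lie under 1 combined peak with a score of 193.0. In the replicates they were far apart in strength. The larger one scored 3100 in both, and the smaller one 120.3 in replicate 1 and 83.9 in replicate 2. In the second span the third highest region was 15646354 to 15647206, with a combined score of 187.6, and in the first span 4925923 to 4927686, with 186.3.

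The most crowded stretch of IV, already named above, lay at the right side of the first piRNA span. The 100 kb windows with most shared regions were 6600001 to 6700000, with 17, and 6700001 to 6800000, with 15, where the median window had 5. Replicate 1 had 29 and 25 peaks in these windows and replicate 2 had 21 and 28. Joining shared regions under 1000 bp apart gave 3 long blocks there. The longest spanned 18.8 kb at 6710177 to 6728946, with 6 shared regions, 10 peaks of replicate 1 and 15 of replicate 2. The second spanned 16.3 kb at 6688433 to 6704747, with 10 shared regions, 20 peaks of replicate 1 and 14 of replicate 2. These were the only blocks on IV of 10 kb or more. The third, 7.37 kb at 6668325 to 6675690, was the fifth longest block on IV.

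Taken from the first base of the third block to the last base of the longest, the stretch was 60.6 kb. Peaks covered 70.4% of it in replicate 1 and 66.5% in replicate 2. It held 43 replicate 1 peaks and 39 replicate 2 peaks, 6.13% and 6.60% of all bases under peaks on IV. In the combined list the stretch was cut into 11 peaks, and the longest block lay almost wholly under 1 of them. That peak was 18776 bp wide, the widest of the combined list on any chromosome, with a score of 17.4 at the 67.3 percentile. The median score percentile of peaks in the stretch was 57.8 in replicate 1 and 66.4 in replicate 2, and no replicate peak there reached 3100. The highest scores were 2692 in replicate 1 and 1184 in replicate 2. In the block of 7.37 kb the median percentile was 90.7 in replicate 1 and 71.8 in replicate 2.

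**Figure D4:**
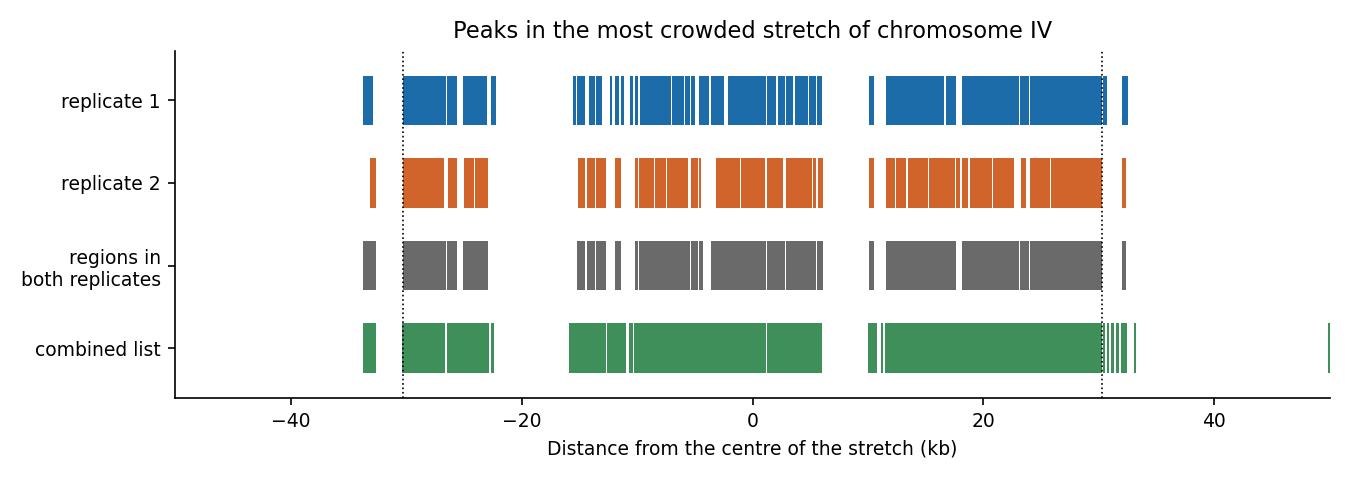
Peaks of replicate 1, replicate 2 and the combined list and the shared regions around the most crowded stretch of chromosome IV, as boxes to scale by distance from its centre in kb. Dotted lines mark the 60.6 kb stretch. Peaks cover 70.4% of it in replicate 1 and 66.5% in replicate 2, cut at different places, and 1 combined peak of 18776 bp fills its right side.

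Over all of IV, this stretch included, shared regions were mostly single. Joining neighbours under 1000 bp apart left 691 blocks, of which 101 held more than 1 region. These 101 blocks contained 242 regions, 29.1% of those on IV. On the other chromosomes 26.99% of shared regions had another within 1000 bp. The share on IV includes the 10, 6 and 3 regions in the 3 long blocks of the stretch. Blocks of 3 or more regions numbered 20 and those of 5 or more 3. The next 2 blocks on IV by length were 9.51 kb at 688735 to 698243 on the left arm, with 7 regions, and 9.38 kb at 8572577 to 8581961 in the centre, with 4 regions. In the block on the left arm the widest peak was 3833 bp in replicate 1 and 1229 bp in replicate 2.

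Shared regions wider than 5000 bp were few on IV. The widest shared region, 6710177 to 6716226 (6050 bp), belongs to the longest block and was made of 5 replicate 1 peaks and 7 replicate 2 peaks. The next 3 were single peaks in both replicates. They lay at 4416358 to 4422109 (5752 bp), left of the first span, at 11070836 to 11076000 (5165 bp) in the centre and at 14476061 to 14481208 (5148 bp) in the second span. The fifth was at 11610613 to 11615578 (4966 bp), with scores of 419 in replicate 1 and 2128 in replicate 2. Those wider than 5000 bp numbered 4 of 832 shared regions on IV and 35 of 4634 in the genome. Shared regions of 1500 bp or more numbered 72 on IV (8.65%), against 7.34% of all nuclear shared regions. They numbered 16 on the left arm (5.52%), 28 on the right arm (9.82%) and 28 in the centre (10.9%). The crowded stretch held 10 of those in the centre, and without it the centre had 18 of 233 (7.73%).

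Gaps between shared regions had a median of 11.6 kb on IV, with quartiles of 2.48 and 27.0 kb. The medians of the other chromosomes lay between 9.03 kb on III and 13.9 kb on the X. Median gaps on IV were 11.7 kb on the left arm, 11.4 kb on the right arm and 12.1 kb in the centre. The centre includes the crowded stretch with its many short gaps. Over 50 kb were 32 of 290 gaps (left arm), 25 of 285 (right arm) and 28 of 256 (centre). More gaps over 100 kb lay in the centre than on either arm. Of the 831 gaps on IV, 141 were under 1 kb, 85 over 50 kb and 18 over 100 kb.

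**Figure D5:**
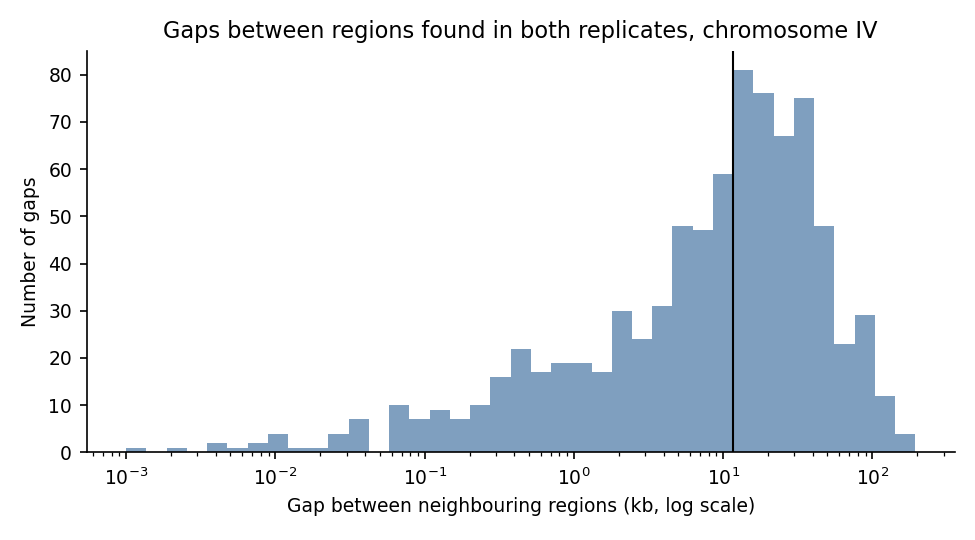
Number of gaps by length (kb, log scale) between neighbouring shared regions on chromosome IV, with the median of 11.6 kb as a line. Gaps reach 193.8 kb, and 141 of the 831 are under 1 kb.

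The longest gap was 193.8 kb on the left arm, from 3826043 to 4019827. Replicate 1 had 3 peaks in it, replicate 2 none and the combined list 7. The next was 180.9 kb near the right end, from 17280322 to 17461248, with 1 replicate 1 peak and 3 replicate 2 peaks. The next 2 lay in the centre. They were 153.7 kb from 10504418 to 10658150, with 1 peak of each replicate, and 152.1 kb from 8630007 to 8782146, with 0 and 3. The fifth, 131.8 kb from 14328611 to 14460412, lay inside the second piRNA span and had 1 peak of each replicate and 15 of the combined list. Of the 175 windows of 100 kb, 6 held no shared region. Replicate 1 had no peak in 1 window, at 11700001 to 11800000, and replicate 2 in 5. Every window held a combined peak.

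The ends of IV differed from each other in their last 200 kb. The first 500 kb had 40 peaks in replicate 1 and 31 in replicate 2, and the last 500 kb had 32 in each. Shared regions numbered 26 at the left end and 19 at the right end. Within 200 kb of the ends, the left end had 12 and 11 peaks, and the right end 4 and 5. The shared regions within 200 kb were 9 at the left end and 2 at the right end. The long gap near the right end, given above, takes up most of that distance. Over the last 1 Mb the counts were 80 and 74, against 80 and 65 in the first 1 Mb. The thin part was thus the outermost stretch of the right end.

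All 3 lists had a peak at each tip. At the left end each began at base 1, and the shared region ran to base 254, with a score of 271.9 in replicate 1 and 927.9 in replicate 2. The next shared regions there were at 17123 to 17617 and 30264 to 30729. At the right end the last 3 shared regions were 17279870 to 17280321, 17461249 to 17461710 and 17492283 to 17492997. The last one ended 819 bp before the last base of the combined list and held 2 peaks of each replicate. The combined list had a further peak at 17493447 to 17493816, which neither replicate called. It scored 39.74, at the 85.2 percentile of that list. None of these 6 end regions reached the top 10% of the list in both replicates.

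The strongest peaks found in 1 replicate only were of moderate rank. In replicate 1 they lay at 10778642 to 10779999, with a score of 689.7 at the 87.9 percentile, at 8914778 to 8916040 (570.7) and at 10242399 to 10243061 (548.4). In replicate 2 they lay at 7735162 to 7736137, with a score of 487.8 at the 81.2 percentile, at 10683702 to 10684591 (390.1) and at 7168158 to 7168677 (348.0). All 6 were between 7 and 11 Mb. Like every IV peak in the higher-scoring 50% of each replicate, they had a peak in the combined list, here with scores from 11.38 to 37.62. The nearest peak of the other replicate was 1076 bp to 41357 bp away.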

How the data were processed

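ZHP-3 ChIP-seq and input DNA of fem-2(b245) worms make up 4 samples, 2 ChIP and 2 input. The files used are 1 peak list per ChIP replicate and 1 series-level (combined) list. Per the file headers, positions are on WormBase WS220; the submitters' processing notes name BWA and ce10. The authors made the combined list with MACS v2 and each replicate list with MACS, per the files, which name the caller of every peak. The sources used here do not give the settings, the control or which reads the combined list rests on. The deposited score of each peak has no stated scale and served to rank the peaks of 1 list. The combined list was not treated as an independent sample. Read depth is unknown.

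Peaks with IV as their sequence name were taken. Overlap was counted from 1 bp. Shared regions are merged intervals of overlapping peaks with at least 1 peak of each replicate. A peak was placed by its midpoint. The score percentile of a peak is its rank among all peaks of its list, ties averaged. Arms are the outer 2 of 3 equal parts, with length from the last base of the combined list. Windows were 100 kb, and blocks joined shared regions under 1000 bp apart. Regions were named by rank (combined score, width, gap length, position), except where stated. The members, sections and lists were chosen with earlier results of these data known. No test between groups was run, since the ChIP replicates form 1 group; 95% intervals are exact binomial. Interval functions were tested on simulated data against direct counting in 5 runs. SciPy 1.17.1, pandas 2.3.3 and NumPy 2.4.6 under Python 3.11.15 gave the values, and matplotlib 3.10.9 the figures.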

Additional observations from a re-analysis of the deposited data

How the results depend on the processing

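No paired analysis was possible because ChIP was not compared with input here and the 2 ChIP replicates are all of 1 group. The ratio of arms to centre on IV (mean 1.14) turned to 0.99 in the higher-scoring 50% of peaks and to 0.947 by covered bases; it was 1.25 in the combined list and, in alternatives added after seeing the data, 1.25 among peaks without a partner and 1.27 without the most crowded stretch. Without that stretch it was 1.15 by covered bases and 1.12 in the higher-scoring 50%. The ratio of piRNA spans to the rest of IV (1.08) turned to 0.902 in the combined list and, without the crowded stretch, to 0.989. It was 1.06 in shared regions, 1.07 in the higher-scoring 50%, 1.19 by covered bases and, in added alternatives, 1.05 without the longest block, 1.01 by covered bases without the crowded stretch and 1.15 against the 1 Mb on each side of the spans. The ratio of IV to the other chromosomes (1.08) was 1.0 in the higher-scoring 50% and, added later, 1.23 in the highest-scoring 10%. No value of it without the crowded stretch is given. The causes were not tested. Leaving out a replicate gave 1.10 to 1.17 for arms, 1.07 to 1.09 for the spans and 1.04 to 1.12 for IV against the others; with 2 replicates such values always lie within 1 SD of the mean.

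A 50% reciprocal overlap lowered the overlap on IV to 63.7% of replicate 1 and 72.4% of replicate 2 peaks, and the higher-scoring 50% raised it to 94.1% and 96.6%. For neither setting is the share over all nuclear peaks given, so these values are not particular to IV. The number of blocks of 10 kb or more, 2, was 1 when joined under 500 bp and 3 under 2000 bp. Windows without a shared region, 6 of 100 kb, were 60 at 50 kb, where there are more windows, and 0 in the combined list. Mean density in the first 500 kb, 71.0 peaks per Mb, was 57.5 over 200 kb, and in the last 500 kb, 64.0, it was 22.5 over 200 kb and 77.0 over 1 Mb. The share of the strongest regions in the second piRNA span, 55.6%, was 32.4% for the top 10% and 36.1% by combined score, both added after seeing the data. The unknown depth limits any reading of peaks found in 1 replicate only.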
